A study of Mus musculus with 6 samples.

Results

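The genes described here encode the pore-forming and auxiliary subunits of sodium, calcium and potassium channels. They were chosen by symbol: each gene whose single platform symbol begins with Scn and a digit, with Kcn or with Cacn, taken from whichever of its probe sets was brightest on average across the 6 arrays. This gave 119 of 18193 measured genes, of which 11 were sodium channel genes, 24 calcium channel genes, 81 potassium channel genes and 3 noncoding transcripts that share a channel gene's symbol. The name voltage-gated channels covers most but not all of them, since inward rectifier (Kcnj), tandem-pore (Kcnk) and small-conductance calcium-activated (Kcnn) potassium channels are not opened by voltage. RNA came from neuralized embryoid bodies, suspension aggregates of mouse embryonic stem cells, and was read on Affymetrix 3' expression arrays. RA-Ag1.3 cultures received 500 nM all-trans retinoic acid with 50 nM Ag1.3, an agonist of the hedgehog transducer Smoothened, for 3 days after 2 days in suspension. RA cultures received 500 nM retinoic acid alone for the same time. Both groups carried a Gli1-FLAG transgene driven constitutively from the Rosa26 promoter, so the RA cultures were not free of this hedgehog transcription factor, and all cultures came from 1 line. Each group had 3 replicates, grown as parallel cultures and paired by number.

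Voltage-gated channels open when the membrane depolarizes. Sodium channels carry the upstroke of the action potential, calcium channels couple depolarization to transmitter release and gene expression, and potassium channels end the action potential and set the resting potential. In embryonic spinal neurons of frogs, where this has been followed closely, early impulses depend mainly on calcium and later ones on sodium.

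In RA-Ag1.3 cultures 1 of the 119 channel genes, Cacna2d1, rose and 0 fell, at an adjusted p under 0.05 in limma's moderated test with the pair as a block. That is 0.84% of the members, against 1.41% of all genes called in either direction (1.08% higher, 0.324% lower). Cacna2d1 encodes an auxiliary subunit of calcium channels and was 7.08-fold brighter with the agonist. Unadjusted p was under 0.05 for 12 members with higher and 4 with lower values in RA-Ag1.3 cultures, and the corresponding shares of all genes were 7.25% and 7.68%. The 12 were Scn1a, Scn8a, Scn9a, Scn11a, Scn3b, Cacna1h, Cacna2d1, Kcna5, Kcnd3, Kcnj9, Kcnj15 and Kcnk15, and the 4 were Cacna2d2, Kcnj6, Kcnk1 and Kcnk5. For 115 of the 119 the 95% interval of the log2 fold change lay inside -1 to 1, as it did for 17903 of all 18193 genes. On this scale that is less than a 2-fold difference either way. The exceptions among the members were Cacna2d1, Cacna1h, Kcnj3 and Kcnk1. Fold changes are of intensity + 16, which understates differences of dim probe sets. The 115 include all 36 members described below as dim in both groups.

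Many channel genes were dim. Control probe sets with no matching spike read up to 20.71, and 36 of the 119 members (30.3%) had means at or below this value in both groups, against 18.7% of all genes. For another 6 the mean was that low in RA cultures only, and for 1 in RA-Ag1.3 cultures only. All 6 arrays lay above it for 64 members. Among the 36 dim members limma's test called 0, and Scn11a was the 1 with an unadjusted p under 0.05. Probe sets differ in brightness for reasons other than transcript level, so intensities are compared between cultures and not between genes.

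**Figure D1:**
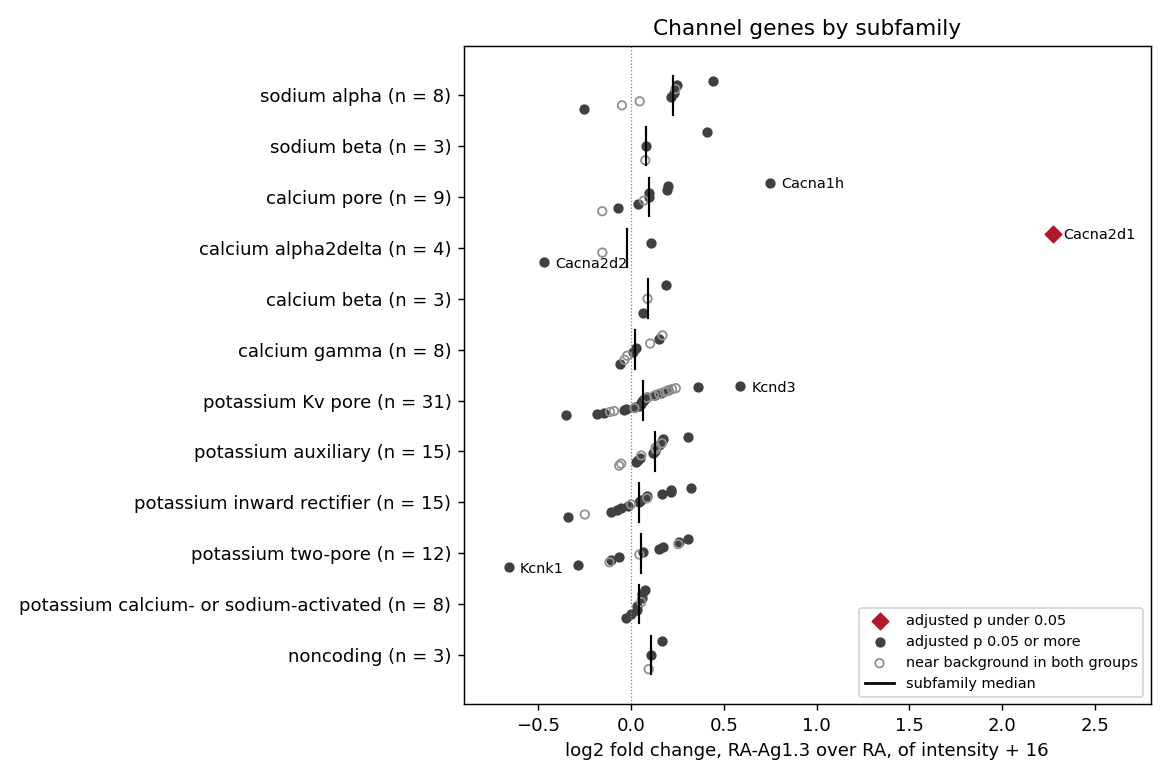
Log2 fold change of intensity + 16, RA-Ag1.3 over RA, for the 119 members by subfamily, 1 point per gene and a line at each subfamily median. Cacna2d1 at 2.27 is the 1 member past the threshold, and open circles mark the 36 members near background in both groups.

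Most markers of neurons were higher in RA-Ag1.3 cultures. Of 12 general neuron markers 8 rose, with a list median log2 fold change of 1.06. The summed intensity of the 12 was 6518 to 9346 in RA-Ag1.3 cultures and 2180 to 3907 in RA cultures. In all 3 pairs 11 of them were higher, while Syt1 was lower in all 3 (log2 fold change -0.11). The median over the channel genes was 0.07, beside -0.01 over all genes. In RA-Ag1.3 cultures 88 of the 119 channel genes (73.9%) had values above 0, against 48.1% of all genes, but after scaling to the hybridization spikes, which shifts the median of all genes to -0.15, this was 45 of 119 (37.8%) against 18.8%, and the members' median was -0.05. The difference between the members' median and that of all genes was 0.08 as deposited and 0.10 after that scaling. The shift was not limited to members above the control range. As deposited, 24 of the 36 members near background in both groups had values above 0, with a median of 0.07. Of the 76 members near background in neither group, 58 did, with a median of 0.06. Values were higher in all 3 pairs for 30 members (17.2% of all genes) and lower in all 3 for 6 (19.5% of all genes). Groups did not overlap for 11 members with higher and 2 with lower values in RA-Ag1.3 cultures, where the shares of all genes were 6.44% and 5.37%. In whole aggregates, fewer cells of a type and less RNA per cell cannot be told apart.

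**Figure D2:**
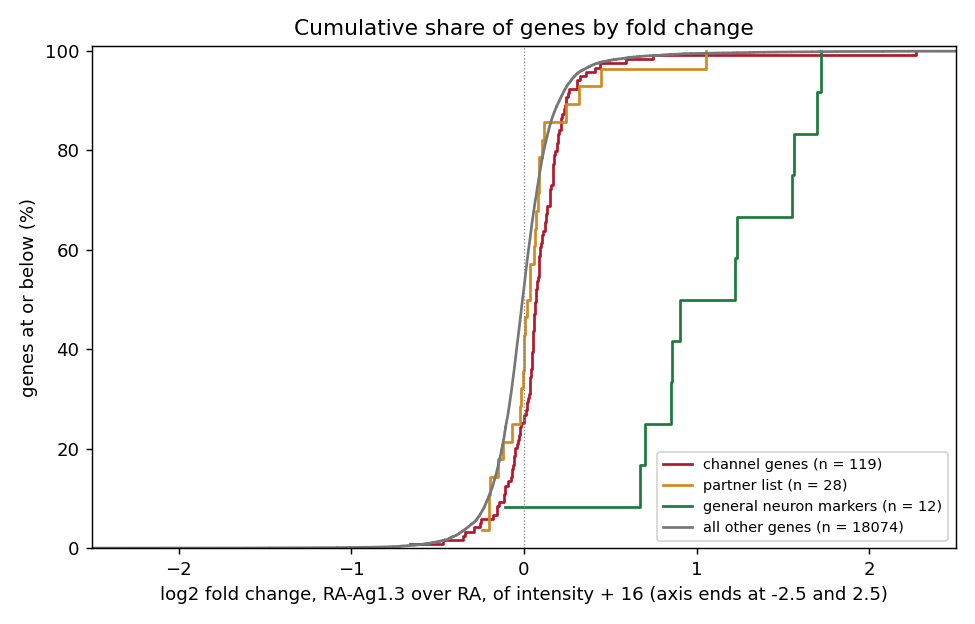
Cumulative share of genes, in percent, by log2 fold change of intensity + 16, RA-Ag1.3 over RA, for the 119 channel genes, 28 partner genes, 12 general neuron markers and the other 18074 genes. The medians are 0.07 for the channel genes and -0.01 for the other genes. The 36 channel genes near background in both groups also have a median of 0.07. Values as deposited lie above 0 for 73.9% of the channel genes and 48.1% of all genes. The neuron markers lie farther out, at a median of 1.06, with Syt1 below 0 at -0.11.

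Sodium channel pores are formed by alpha subunits, each sufficient for a current. Of 8 measured alpha subunit genes 0 passed the threshold in limma's test. Unadjusted p was under 0.05 for 4, all with higher values in RA-Ag1.3 cultures, beside 7.25% of all genes. Of these 4, Scn11a was near background in both groups and Scn1a in RA cultures. The median log2 fold change was 0.23, beside -0.01 over all genes. After scaling to the spikes it was 0.09, beside -0.15 over all genes, and with the mean of probe sets 0.11, beside -0.01. Scn8a, which encodes an alpha subunit found at nodes of Ranvier and axon initial segments of mature neurons, read 161.39, 160.37 and 137.06 in RA-Ag1.3 cultures, against 124.28, 125.50 and 132.47 in RA cultures. The groups did not overlap, and the smallest gap was in pair 3. The difference had an adjusted p of 0.329 (log2 fold change 0.23, SE 0.09). Its further probe sets disagreed, with log2 fold changes of 0.23, 0.28, -0.32 and -0.00.

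Scn3a, the alpha subunit that predominates in embryonic brain, averaged 54.0 ± 5.50 in RA-Ag1.3 and 43.5 ± 10.3 in RA cultures (SD, n = 3 each), with overlapping groups and an adjusted p of 0.395. Scn9a, known from sensory and sympathetic neurons, read 31.63, 23.51 and 29.07 in RA-Ag1.3 cultures and 21.82, 17.48 and 26.58 in RA cultures, higher in each pair and close to the range of the unspiked controls. Scn1a, best known from inhibitory interneurons, read 30.20, 22 and 21.54 in RA-Ag1.3 cultures, against 16.34, 22.59 and 5.07 in RA cultures, whose mean lay in the control range. Its groups overlapped, and pair 2 went the other way from pairs 1 and 3. Scn2a, Scn10a and Scn11a were near background in both groups. Scn7a, an atypical sodium channel that responds to extracellular sodium, averaged 18.1 in RA-Ag1.3 and 25.1 in RA cultures and was lower in all 3 pairs, with an adjusted p of 0.423.

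Beta subunits are single-span proteins that adjust gating and link the channel to adhesion molecules. Of the 3 measured, Scn3b was the farthest from 0. It read 62.28, 56.87 and 69.28 in RA-Ag1.3 cultures and 33.84, 45.51 and 51.51 in RA cultures. Each RA-Ag1.3 value was above each RA value (log2 fold change 0.41, SE 0.10, adjusted p = 0.159). Its further probe set, dimmer, gave 0.32. Scn2b read 170.73, 144.95 and 164.45 in RA-Ag1.3 cultures and 129.72, 169.52 and 152.85 in RA cultures, with overlap and no shared direction (95% interval of the log2 fold change -0.22 to 0.39). Scn4b was near background in both groups.

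The calcium channel genes held the 1 member past the threshold. Alpha2delta subunits are extracellular, membrane-anchored proteins that raise the number of calcium channels at the cell surface and presynaptic terminals, and they are the binding site of gabapentin. Cacna2d1 read 258.46, 200.39 and 147.31 in RA-Ag1.3 cultures, against 20.69, 29.92 and 35.03 in RA cultures. Every RA-Ag1.3 value was at least 4 times the highest RA value, and the lowest RA value lay at the upper edge of the control range. The means were 202 ± 55.6 in RA-Ag1.3 and 28.5 ± 7.27 in RA cultures (SD, n = 3 each). The log2 fold change was 2.27 with SE 0.23, a 95% interval of 1.71 to 2.84 and an adjusted p of 0.0192, and the p-value ranked 92 of 18193 genes. Without pair 2 the adjusted p was 0.112, and with a pseudocount of 1, where 0 of all genes passed in limma's test, it was 0.159.

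The further 4 probe sets of Cacna2d1, which the choice of the brightest left out, each read higher with the agonist in all 3 pairs. The brightest of these read 62.01, 43.12 and 33.08 in RA-Ag1.3 cultures, against 12.34, 17.29 and 17.53 in RA cultures, with no overlap. Their log2 fold changes were 0.95, 0.60, 0.36 and 0.71, with unadjusted p from 0.00231 to 0.00603 when every probe set was tested on its own, where 13.6% of all 34945 probe sets had an unadjusted p under 0.05. They passed no threshold after adjustment over all probe sets (0.913% called). The mean of its 5 probe sets gave 0.98 with an adjusted p of 0.0401.

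**Figure D3:**
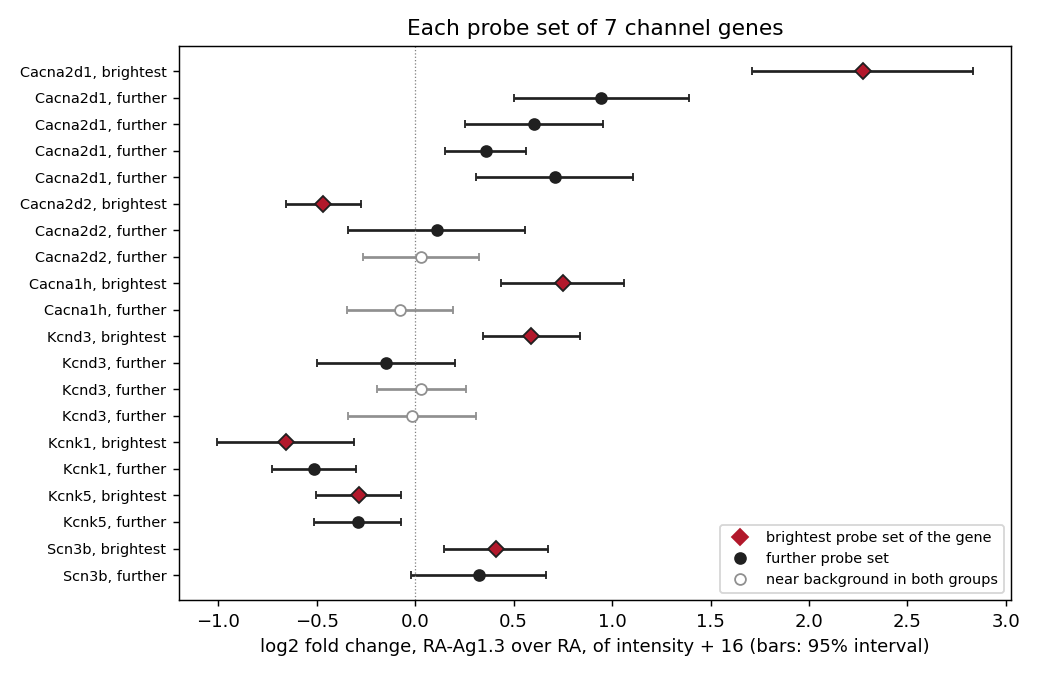
Log2 fold change of intensity + 16, RA-Ag1.3 over RA, with 95% intervals, for every probe set of 7 channel genes. The 5 probe sets of Cacna2d1 all lie above 0, from 0.36 to 2.27, and both probe sets of Kcnk1 lie below 0, at -0.66 and -0.51, whereas the further probe sets of Cacna2d2, Cacna1h and Kcnd3 lie between -0.15 and 0.11.

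Its paralogue Cacna2d2 went the other way without passing the threshold. It read 92.76, 82.85 and 51.10 in RA-Ag1.3 cultures and 135.97, 118.11 and 77.45 in RA cultures. All 3 pairs were lower by a similar amount, while the groups overlapped because pair 3 was dim in both. The log2 fold change was -0.47 with SE 0.07 and an adjusted p of 0.0575. Its further probe sets gave 0.11 and 0.03. Cacna2d3 averaged 48.0 in RA-Ag1.3 and 43.3 in RA cultures (log2 fold change 0.11, adjusted p = 0.588), and Cacna2d4 was near background in both groups.

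The promoters of both genes, from 250 bases before to 50 after the start of the RefSeq gene on build GRCm38.p6, are shown because these paralogues had the largest differences of the alpha2delta genes, in opposite directions. Capitals mark the GC box GGGCGG on either strand, a site recognised by Sp-family factors. Cacna2d1 is read from chr5:15934441-15934740 on the plus strand and Cacna2d2 from chr9:107399630-107399929 on the plus strand.
Cacna2d1: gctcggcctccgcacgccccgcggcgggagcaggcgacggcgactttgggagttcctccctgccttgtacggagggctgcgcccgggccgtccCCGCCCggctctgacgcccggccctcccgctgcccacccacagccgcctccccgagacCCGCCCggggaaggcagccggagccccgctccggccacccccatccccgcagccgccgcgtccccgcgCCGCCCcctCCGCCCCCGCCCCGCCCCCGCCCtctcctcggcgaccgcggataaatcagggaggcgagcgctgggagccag
Cacna2d2: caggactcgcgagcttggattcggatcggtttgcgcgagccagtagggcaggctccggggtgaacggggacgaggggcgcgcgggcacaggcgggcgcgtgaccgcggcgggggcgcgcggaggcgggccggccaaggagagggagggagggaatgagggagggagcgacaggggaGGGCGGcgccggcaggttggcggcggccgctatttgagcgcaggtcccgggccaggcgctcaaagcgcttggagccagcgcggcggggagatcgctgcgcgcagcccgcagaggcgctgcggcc
The Cacna2d1 window held 7 GC boxes and the Cacna2d2 window 1, with GC contents of 80% and 75.7% and with 42 and 43 CpG dinucleotides. A GC box was found in 45.2% of 126 promoter windows of the 91 members matched in the table and in 35.7% of all 32851 windows. The Gli consensus GACCACCCA, searched on both strands, was in neither window. It was found in 1 member window, that of Cacnb4, and in 0.253% of all windows. These are matches of letters, and no binding was measured.

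Pore subunits of calcium channels set the voltage range and the drug sensitivity of the current. Of 9 measured 0 passed the threshold in limma's test, and Cacna1h was the 1 with an unadjusted p under 0.05. Cacna1h encodes a T-type channel, which opens at small depolarizations. It read 84.91, 67.10 and 89.55 in RA-Ag1.3 cultures and 45.24, 43.61 and 34.96 in RA cultures. The groups did not overlap, and the mean was 1.95-fold higher in RA-Ag1.3 cultures. The log2 fold change was 0.75 with SE 0.12, a 95% interval of 0.44 to 1.06 and an adjusted p of 0.0640. Its further probe set was near background in both groups. Cacna1g, another T-type channel, averaged 99.6 ± 12.7 in RA-Ag1.3 and 85.3 ± 15.9 in RA cultures (log2 fold change 0.20, adjusted p = 0.574).

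The genes of high-voltage calcium channels also gave no call. Cacna1a, the P/Q-type channel of presynaptic terminals, averaged 118 ± 20.8 in RA-Ag1.3 and 114 ± 13.0 in RA cultures (log2 fold change 0.04, 95% interval -0.16 to 0.23). Cacna1b, the N-type channel, averaged 37.3 ± 5.64 in RA-Ag1.3 and 39.7 ± 0.96 in RA cultures by its brightest probe set, a log2 fold change of -0.07. Its further 3 probe sets, described after their values were seen, gave 0.32, 0.55 and 0.13. The first of these lay above the control range in both groups and read 35.39, 27.92 and 38.90 in RA-Ag1.3 cultures and 24.06, 27.20 and 20.70 in RA cultures, with no overlap. Its adjusted p over all probe sets was 0.348, and the other 2 were near background. Cacna1e, the R-type channel, averaged 25.9 ± 5.56 in RA-Ag1.3 and 20.3 ± 3.73 in RA cultures, the RA mean lying in the control range (log2 fold change 0.20, adjusted p = 0.582). Cacna1c, the L-type channel of heart and brain, had a log2 fold change of 0.10 with a 95% interval of -0.15 to 0.35. Cacna1s and Cacna1f, the channels of skeletal muscle and retina, were near background in both groups. Heart and skeletal muscle markers summed to 169 to 192 in RA-Ag1.3 and 177 to 206 in RA cultures over 9 genes, with Myh6, Myh7 and Tnnt2 near background.

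Beta subunits, which bind the pore from the cytoplasm and bring it to the membrane, and gamma subunits, several of which serve AMPA receptors as auxiliary proteins, gave no call. Limma's test called 0 of 3 beta and 0 of 8 gamma subunit genes, and unadjusted p was under 0.05 for 0 of the 11. Cacnb1 averaged 42.5 ± 2.60 in RA-Ag1.3 and 35.4 ± 5.31 in RA cultures, with adjusted p of 0.376. Cacng4 read 162.93, 120.88 and 132.57 in RA-Ag1.3 cultures and 136.25, 123.10 and 109.21 in RA cultures, with overlapping groups. Its further probe set, dimmer, was higher in all 3 pairs (log2 fold change 0.45, adjusted p = 0.302 over all probe sets). Cacng7 averaged 118 ± 3.49 in RA-Ag1.3 and 124 ± 2.09 in RA cultures. These groups did not overlap, and the 95% interval of its log2 fold change was -0.24 to 0.13. The further probe set of Cacng7, dimmer but above the control range in both groups, had the opposite sign. It was higher in all 3 pairs, with a log2 fold change of 0.22. Cacng1, Cacng2, Cacng3 and Cacng8 were near background in both groups.

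**Figure D4:**
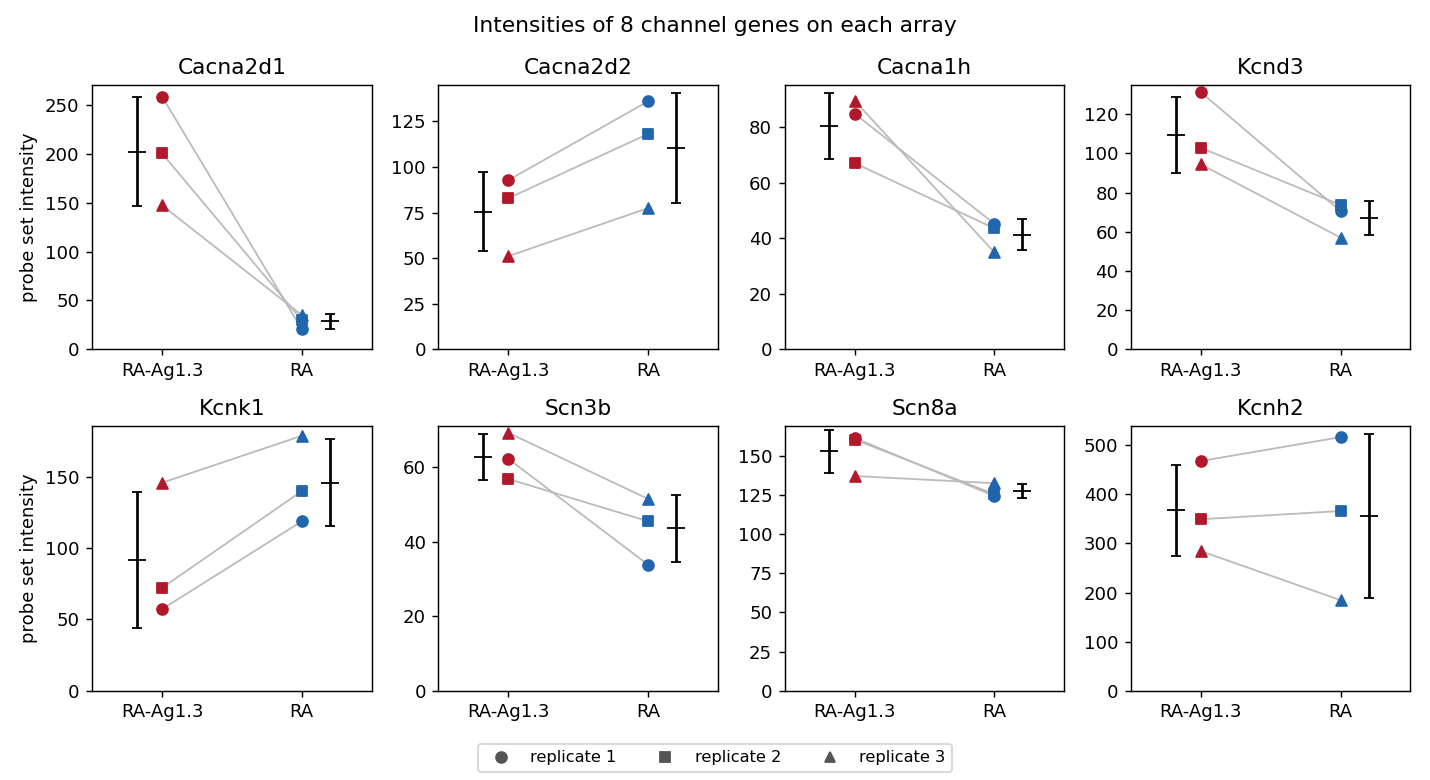
Probe set intensity on each array for 8 channel genes, RA-Ag1.3 at the left and RA at the right of each panel, with lines joining paired cultures and black bars for mean ± SD. Cacna2d1 lies between 147.31 and 258.46 in RA-Ag1.3 cultures, above all RA cultures, and Kcnh2 is spread over its pairs more than over the groups.

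Potassium channels were the largest family, and 0 of 81 genes passed the threshold in limma's test. An unadjusted p under 0.05 was found for 5 with higher and 3 with lower values in RA-Ag1.3 cultures, beside 7.25% and 7.68% of all genes. Of 31 genes for subunits of the voltage-gated (Kv) pores, Kcnd3, which carries a rapidly inactivating A-type current, was the farthest from 0. It read 131.21, 102.84 and 94.42 in RA-Ag1.3 cultures, against 70.53, 73.72 and 57.01 in RA cultures. The groups did not overlap (log2 fold change 0.59, SE 0.10, adjusted p = 0.0627). Its further 3 probe sets gave -0.15, 0.03 and -0.02, and 2 of these were near background. Kcna5, a delayed rectifier known from the heart, averaged 23.8 ± 1.28 in RA-Ag1.3 and 15.0 ± 2.14 in RA cultures, the RA mean lying in the control range, with adjusted p of 0.136.

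The 3 Kv genes with the brightest probe sets did not pass the threshold. Kcnh3, an ether-a-go-go family channel of the brain, read 459.48, 444.14 and 428.57 in RA-Ag1.3 cultures and 387.06, 347.70 and 423.14 in RA cultures. The groups did not overlap, and pair 3 was nearly equal (log2 fold change 0.20, adjusted p = 0.404). Its further 3 probe sets gave -0.15, -0.17 and -0.24, opposite in sign, and 2 of them lay above the control range in both groups. Kcnc1, a fast-spiking delayed rectifier, read 139.11, 141.01 and 140.62 in RA-Ag1.3 cultures and 112.45, 140.13 and 147.84 in RA cultures, with overlap (95% interval of the log2 fold change -0.17 to 0.31). Kcnh2, the hERG channel of heart repolarization, read 467.88, 349.22 and 284.34 in RA-Ag1.3 cultures and 516.56, 366.00 and 184.31 in RA cultures. It was highest in pair 1 and lowest in pair 3 in both groups, while the log2 fold change was 0.13 (95% interval -0.27 to 0.52). Among the 76 members above the control range in both groups, the highest replicate was a median of 1.26 times the lowest in RA-Ag1.3 cultures and 1.29 times in RA cultures. A range over 2-fold was seen for 2 of them in RA-Ag1.3 cultures, Kcnk1 and Kcng4, and for 5 in RA cultures, among them Kcnh2. Kcna1, an axonal delayed rectifier, lay near the upper end of the control range at 23.18, 21.46 and 25.55 in RA-Ag1.3 cultures and 20, 21.32 and 23.55 in RA cultures. Of the 31 Kv genes 10, Kcnd2 among them, were near background in both groups.

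Auxiliary potassium channel subunits, which include the cytoplasmic Kcnab proteins, the calcium-binding Kcnip proteins and the single-span Kcne proteins, gave 0 calls of 15 in limma's test and 0 at an unadjusted p under 0.05. Kcnip3, a calcium sensor that also binds DNA, read 85.49, 68.53 and 71.95 in RA-Ag1.3 cultures and 38.85, 69.59 and 68.48 in RA cultures. The groups overlapped and most of the difference was in pair 1 (log2 fold change 0.31, 95% interval -0.17 to 0.78). Kcnip2 averaged 50.2 ± 5.53 in RA-Ag1.3 and 48.8 ± 12.9 in RA cultures, and Kcnmb4, a neuronal beta subunit of the large-conductance channel, averaged 77.1 ± 7.28 in RA-Ag1.3 and 75.6 ± 9.43 in RA cultures. Kcne1, Kcne2, Kcne3, Kcne4, Kcnab3 and Kcnip4 were near background in both groups.

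Of the 15 inward rectifier genes 0 passed in limma's test. Kcnj11, a pore subunit of the ATP-sensitive channel that couples metabolism to excitability, read 1283.28, 1351.37 and 1177.60 in RA-Ag1.3 cultures and 1234.83, 1270.16 and 1083.69 in RA cultures. It was slightly higher in each pair and the groups overlapped, with a log2 fold change of 0.09 and a 95% interval of -0.10 to 0.27. Its further probe set, much dimmer, gave 0.07. Kcnj6, a G protein-gated channel, read 41.34, 40.90 and 64.29 in RA-Ag1.3 cultures and 65.15, 66.30 and 63.35 in RA cultures. Pairs 1 and 2 were lower and pair 3 was not (log2 fold change -0.34, adjusted p = 0.315). Its further probe sets disagreed, with 0.12, 0.11, 0.14 and -0.24, and only the first of these lay above the control range in both groups. Kcnj3, the partner of Kcnj6 in neuronal channels, averaged 81.5 ± 23.8 in RA-Ag1.3 and 62.3 ± 23.5 in RA cultures, with a 95% interval of -0.38 to 1.03. Pairs 1 and 2 were higher and pair 3 was lower. The further probe sets of Kcnj3 gave -0.15, -0.09 and -0.32, opposite in sign, and only the first of these lay above the control range in both groups. Kcnj9 and Kcnj15 were each higher in all 3 pairs by 0.22 on the log2 scale, with overlapping groups and adjusted p of 0.270 and 0.295.

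Tandem-pore channels carry the background leak that sets the resting potential, and of 12 genes 0 passed in limma's test. Kcnk1 read 57.22, 72.17 and 145.98 in RA-Ag1.3 cultures, against 118.88, 140.09 and 178.95 in RA cultures. Each pair was lower with the agonist, and the groups overlapped because both cultures of pair 3 were high. The adjusted p was 0.110 (log2 fold change -0.66, SE 0.14). Its further probe set read 61.92, 45.21 and 73.10 in RA-Ag1.3 cultures and 88.77, 79.16 and 107.98 in RA cultures, with no overlap between the groups and a log2 fold change of -0.51. Over the same arrays, 6 pluripotent cell markers summed to 2665, 4102 and 5719 in RA-Ag1.3 cultures and 4454, 6623 and 7435 in RA cultures, and all 6 had log2 fold changes below 0, of which Pou5f1 fell. Of 7 endoderm markers Sox17 and Krt8 fell, Krt18 was lower in all 3 pairs without passing, and the other 4 had no shared direction over the pairs, with a list median of -0.03. The sum of the 7 was 458.5, 550.2 and 1327 in RA-Ag1.3 cultures and 781.9, 887.8 and 1765 in RA cultures. The part of these cells in the Kcnk1 values was not tested.

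Kcnk5, a leak channel sensitive to external pH, read 134.78, 121.58 and 146.77 in RA-Ag1.3 cultures and 167.76, 166.13 and 167.25 in RA cultures. The groups did not overlap (log2 fold change -0.29, SE 0.08, adjusted p = 0.202). Its further probe set gave the same size, -0.29. Kcnk13 averaged 89.2 ± 20.7 in RA-Ag1.3 and 92.9 ± 4.82 in RA cultures, and Kcnk2, a mechanically gated leak channel, was near background in both groups.

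Pores opened by intracellular calcium or sodium gave 0 calls of 8 in limma's test and 0 at an unadjusted p under 0.05. Their log2 fold changes lay between -0.02 and 0.08. Kcnn1, a small-conductance channel of the afterhyperpolarization, averaged 75.6 ± 8.81 in RA-Ag1.3 and 75.5 ± 8.96 in RA cultures by its brightest probe set. Its further probe set read 75.14, 64.67 and 64.43 in RA-Ag1.3 cultures and 51.10, 59.40 and 41.87 in RA cultures. These groups did not overlap (log2 fold change 0.34, adjusted p = 0.258 over all probe sets), so the 2 probe sets of Kcnn1 disagreed. Kcnma1, the large-conductance channel, averaged 36.5 ± 9.39 in RA-Ag1.3 and 34.2 ± 6.85 in RA cultures by its brightest probe set. Its further probe sets disagreed, with log2 fold changes of -0.22, -0.20, 0.06 and 0.05. Only the first of these lay above the control range in both groups. It was lower in all 3 pairs, with no overlap of the groups. Kcnn3 was listed at 1 on 5 of the 6 arrays.

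The 3 noncoding transcripts also gave no call. Kcnq1ot1, the imprinted antisense RNA of the Kcnq1 domain, averaged 221 ± 26.3 in RA-Ag1.3 and 205 ± 34.0 in RA cultures (log2 fold change 0.11, adjusted p = 0.805). Kcnmb4os2 averaged 40.7 ± 3.35 in RA-Ag1.3 and 34.5 ± 2.54 in RA cultures, with adjusted p of 0.469, and Kcnmb4os1 was near background.

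The 119 members had 252 probe sets, 47 members had 1 and 72 had several. Of the 133 further probe sets, 82 were near background in both groups, 68 had the sign of the chosen one and 65 the opposite sign. With every probe set tested on its own, unadjusted p was under 0.05 for 23 with higher and 11 with lower values in RA-Ag1.3 cultures, beside 13.6% of all probe sets in either direction. After adjustment 1 of the 252 passed, beside 0.913% of all probe sets.

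Of 28 measured genes in a list of channel partners, pumps and other channels, 1 rose and 0 fell, beside 1.08% and 0.324% of all genes. Ank2, an ankyrin that anchors channels and pumps to the membrane skeleton, read 270.04, 170.96 and 179.93 in RA-Ag1.3 cultures, against 124.21, 89.55 and 62.67 in RA cultures. The groups did not overlap (log2 fold change 1.06, SE 0.11, adjusted p = 0.0226). The call was lost without the block, without any 1 of the pairs and with the mean of its probe sets. Ank3, which gathers sodium channels at the axon initial segment, averaged 467 ± 45.0 in RA-Ag1.3 and 339 ± 57.1 in RA cultures, with adjusted p of 0.0839. The list median was 0.03. Fgf13, a cytoplasmic partner of sodium channels, averaged 155 ± 40.8 in RA-Ag1.3 and 188 ± 57.4 in RA cultures, and Nalcn, the sodium leak channel, averaged 70.1 ± 8.50 in RA-Ag1.3 and 65.0 ± 1.51 in RA cultures, with adjusted p of 0.352 and 0.710.

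Cacna2d1 was high in the same cultures as motor neuron and general neuron markers. Of 6 motor neuron markers 4 rose, and their summed intensity was 2090, 1531 and 1283 in RA-Ag1.3 cultures and 194.8, 234.1 and 244.7 in RA cultures. Cacna2d1 and this sum were both highest in RA-Ag1.3 replicate 1 and lowest in RA replicate 1. In RA cultures the means of Lhx3 and Slc18a3 lay in the control range, and Isl1 was highest in replicate 2. Cacna2d1 in RA replicate 1 lay at the upper edge of that range. The general neuron sum was 9346, 7728 and 6518 in RA-Ag1.3 cultures and 3907, 3295 and 2180 in RA cultures. It ran in the same order as Cacna2d1 within RA-Ag1.3 cultures and in the opposite order within RA cultures. The part of neuron number in the Cacna2d1 difference was not tested. Neural progenitor markers moved in both directions, with log2 fold changes above 0 for 5 of 8 genes and below 0 for 3. Notch1 rose (adjusted p = 0.0364). Hes5, Nes and Fabp7 were higher in all 3 pairs without passing (adjusted p of 0.081, 0.244 and 0.270). Pax6 and Sox2 were lower in all 3 pairs (adjusted p of 0.0531 and 0.623), Sox2 with no overlap of the groups. The 8 genes summed to 9326 to 12240 in RA-Ag1.3 and 8182 to 12265 in RA cultures. Glial markers summed to 511.6 to 577.6 in RA-Ag1.3 and 432.0 to 471.3 in RA cultures over 5 genes, with 0 calls in limma's test and Mbp the 1 with an unadjusted p under 0.05. Mbp, the brightest of them, averaged 294 in RA-Ag1.3 and 218 in RA cultures. Aldh1l1 was lower in all 3 pairs, and Aqp4, Sox10 and Gfap had no shared direction over the pairs.

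The calls near the threshold depended on the settings of the fit. Cacna1h, Cacna2d2, Kcnd3 and Kcnk1 passed, besides Cacna2d1, when the prior variance followed intensity and with a pseudocount of 64. The share of all genes called was then 4.88% and 4.5%. With genes above the median probe set alone, 8.32% of genes were called and Scn3b passed as well. After scaling to the spikes 3 members rose and 5 fell, against 1 and 0 as deposited, where all genes split into 320 higher and 1437 lower, against 197 and 59 as deposited (9.66% called). Cacna2d1 was the 1 member called without the block (0.478% of all genes), with the mean of probe sets (1.18%), with quantile normalization (1.51%), without pair 1 (0.22%) and without pair 3 (0.374%), and 0 were called without pair 2 (0.275%). Cacna2d1 kept its call under 9 of 11 alternatives, and its log2 fold change ranged from 0.98 to 2.78.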

How the data were processed

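Probe set intensities on a linear scale were deposited by the authors for 6 arrays. How probe sets were summarised and scaled is not stated in the sources used here. Per the labels' protocols, biotinylated cRNA was made with a 3' IVT kit. Of 45101 probe sets, 64 controls were left out, and 34945 had 1 symbol in the platform annotation. They stood for 18193 genes, each taken as its brightest probe set. All 119 members matched RefSeq by gene identifier with an equal symbol. Median intensities were 48.68 to 52.55 over the arrays, and spikes averaged 9.74 to 9.82 on RA-Ag1.3 and 9.43 to 9.72 on RA arrays (log2 of intensity + 16).

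Intensities were taken as log2(intensity + 16) and fitted over all genes with limma 3.58.1 in R 4.3.3 (lmFit, eBayes). The pair number was the block because the design text describes paired cultures. After group means were removed, same-numbered arrays correlated at 0.538, 0.186 and 0.561 over genes, and others at -0.515 to 0.0741. Deviations from a group mean cancel, so positive values for same-numbered arrays by themselves bring lower ones for the others. P-values are two-sided and adjusted over all genes (Benjamini-Hochberg), and calls were made under 0.05. They measure the spread between 3 pairs of cultures of 1 line. The code was tested on simulated data.

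Members and lists were chosen with earlier results of these data known. Named were members past the threshold, the 3 brightest of each subfamily, in subfamilies without a call the 2 lowest p-values, and a set of well-known members. Other members are named to complete a count, or where the text says so. Alternatives were 2 pseudocounts, no block, a filter on low intensity, the mean of probe sets, a variance prior following intensity, quantile normalization, spike scaling, leaving out each pair and, added after seeing the data, every probe set on its own. Promoter sequences are from RefSeq (GRCm38.p6).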

Additional observations from a re-analysis of the deposited data

How the results depend on the processing

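The count of channel genes past the threshold was 1 of 119 without the replicate block, with quantile normalization, with the mean of probe sets and with every probe set on its own, and Cacna2d1 was that gene each time. Leaving out 1 pair gave 0 to 1 calls for all members and for the alpha2delta genes, and 0 for the partner list. It was 0 with a pseudocount of 1, where limma called 0 of 18193 genes and 13 members had an unadjusted p under 0.05. It was 5 with a pseudocount of 64 and with the prior variance following intensity, 6 of 34 among genes above the median probe set, and 8 after scaling to the spikes. By subfamily these settings gave 2 alpha2delta genes, 1 calcium pore gene, 1 Kv gene (2 after spike scaling) and 1 tandem-pore gene (2 after spike scaling). The filter added 1 sodium beta subunit gene, Scn3b, and spike scaling 1 inward rectifier, Kcnj6. With a pseudocount of 1 the alpha2delta count was 0. The partner list gave 0 without the replicate block, with the mean of probe sets and with a pseudocount of 1, 2 with a pseudocount of 64, with the intensity prior and after spike scaling, and 3 with the filter. Residual and prior degrees of freedom were 5.48 as reported, 8.43 with the intensity prior and 36400 after spike scaling. The replicate block changed no call among the members. Dim probe sets limit what can be seen: 36 members lay near background in both groups.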
